A study of Mus musculus with 6 samples.

Results

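A set of 9 genes of the Sonic hedgehog (SHH) pathway and its cell cycle output was followed in cultured mouse cerebellar granule neurons (CGNs): the receptor genes Ptch1 and Boc, the signal transducers Smo and Sufu, the transcription factor genes Gli1, Gli2 and Gli3, and the D cyclin genes Ccnd1 and Ccnd2. They were taken by symbol from the count tables, so 9 of 55341 listed genes are described. RNA was compared between 3 libraries of cultures given the vehicle DMSO and 3 libraries of cultures given GSK-126, a small molecule inhibitor of EZH2, the enzyme of the Polycomb complex PRC2 that trimethylates lysine 27 of histone H3. All 6 libraries share the same preparation: granule neuron precursors (GNPs) of pooled CD1-IGS litters at P6-P8, enriched on a Percoll gradient, with cytosine arabinoside added to all cultures to stop dividing non-neuronal cells. The labels give DIV3 (day in vitro) without saying whether it is the day of addition or of collection, and name cerebellum as the tissue. Addition at DIV3 and RNA at DIV5 were assumed here from the study's text. The concentration of GSK-126 used at DIV3 is not given in the sources used here, and no SHH or SMO agonist is named among the additions.

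In the developing cerebellum, SHH from Purkinje cells drives the division of GNPs. SHH binds PTCH1 together with the co-receptors BOC, CDON and GAS1, which frees SMO to act at the primary cilium. SUFU is then released from the GLI factors, GLI2 and GLI3 switch from repressor to activator forms, and transcription of Gli1, Ptch1, Mycn and the D cyclin genes follows. CCND1 and CCND2 with CDK4 or CDK6 carry cells into S phase. Gli1 and Ptch1 are at once pathway components and its usual transcriptional readouts, and several genes of the developing cerebellum are known targets of PRC2.

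With GSK-126, Ptch1 fell by 27.1% and Boc fell by 24.9%, and Ccnd2 rose by 33.1%, when the libraries were compared within pairs of the same replicate number (n = 3 pairs). These 3 members of the 8 tested passed an adjusted p of 0.05 in that fit, 2 lower and 1 higher, and the call of Ptch1 was absent without pair 2 (adjusted p = 0.0965 by edgeR). Summed markers of granule neurons and of GABAergic interneurons were also lower with GSK-126 in each pair. Those of fibroblast and mural cells, microglia and the oligodendrocyte lineage were higher in each pair. The part of any of these cells in these values was not tested. Among all 16729 genes tested, 5.09% were called lower, 3.35% higher and 8.44% in either direction with the pairing. Without the pairing none of the 8 was called, and neither was any other gene (0% of 16729 by edgeR, with 665 genes at an unadjusted p under 0.05). DESeq2 without the pairing called 21 genes, none of them a member. Gli1 was at the limit of detection in both groups, and Gli2, Gli3, Smo, Sufu and Ccnd1 were not called in either fit.

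Of the 3 called members, Ptch1 has a promoter sequence in the RefSeq table for GRCm38.p6, as do 4 others, Smo, Sufu, Gli2 and Gli3. The 250 bases before the start of Ptch1 and of Sufu are shown, with each CpG dinucleotide in capitals, because CpG-dense promoters are the common sites of PRC2 binding and these 2 differ widely in CpG content.
Ptch1 (chr13:63565736-63565985, minus strand): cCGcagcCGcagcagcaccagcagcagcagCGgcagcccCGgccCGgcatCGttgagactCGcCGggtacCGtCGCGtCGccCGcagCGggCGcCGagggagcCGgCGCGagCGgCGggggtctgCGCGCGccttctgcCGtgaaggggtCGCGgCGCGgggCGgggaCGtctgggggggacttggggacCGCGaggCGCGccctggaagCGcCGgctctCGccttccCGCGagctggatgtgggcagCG
Sufu (chr19:46396646-46396895, plus strand): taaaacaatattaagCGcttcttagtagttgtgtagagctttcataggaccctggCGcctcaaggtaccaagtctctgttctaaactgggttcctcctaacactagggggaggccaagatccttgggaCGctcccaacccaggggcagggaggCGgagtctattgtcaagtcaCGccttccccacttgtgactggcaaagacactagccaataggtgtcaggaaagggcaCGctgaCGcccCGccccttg
The Ptch1 window holds 41 CpGs, 1.08 times as many as its base composition predicts, which is above 97.3% of the 32851 promoters in the table. Sufu holds 8, a ratio of 0.44, close to the median promoter at 0.37. Gli3 had a ratio of 1.13, Gli2 of 0.78 and Smo of 0.54. So the called Ptch1 and the uncalled Gli3 had the densest CpG content of the 5. The GLI binding motif GACCACCCA, searched on both strands, was found in none of the 5 windows and in 0.225% of all promoters, and the looser form GACCNCCCA, which contains it, in none of the 5 and in 0.868% of all. These windows are short, and a match or its lack is a description of the letters alone. The Ptch1 window lies within the annotated gene, before the start of 1 of its transcripts. The Gli3 window also lies within its annotated gene.

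Ptch1 encodes the SHH receptor that holds SMO inactive in the absence of ligand (ENSMUSG00000021466.12, GRCm38 chr13:63508328-63573598, minus strand). It had 80.4, 179 and 110 CPM (counts scaled to a common library size with TMM factors) in DMSO replicates 1, 2 and 3, and 69.3, 103 and 87.0 CPM in the GSK-126 libraries of the same numbers. The GSK-126 library was the lower one in all 3 pairs, but the groups overlapped because DMSO replicate 1 lay below 2 of the GSK-126 libraries. The group means were 123 ± 50.3 and 86.5 ± 16.9 CPM (SD, n = 3). With the replicate number as a block, the log2 fold change was -0.46 (SE 0.0973), with an adjusted p of 0.00456 from edgeR's quasi-likelihood fit, adjusted by Benjamini-Hochberg over all tested genes. Without the block it was -0.51 (SE 0.287, edgeR adjusted p = 0.953). The fall was widest in pair 2: without that pair the log2 fold change with the block was -0.28 and the adjusted p 0.0965 by edgeR, so the call rests on it.

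Boc encodes a co-receptor that presents SHH to PTCH1 (ENSMUSG00000022687.12, chr16:44485049-44558897, minus strand). Its levels were 106, 194 and 118 CPM with DMSO and 83.5, 137 and 90.7 CPM with GSK-126, in the order of the replicate numbers. Each GSK-126 library was again below its DMSO partner, by a log2 ratio of -0.34, -0.50 and -0.38 in pairs 1 to 3, while the groups overlapped. The log2 fold change was -0.41 with the block (SE 0.0784, edgeR adjusted p = 0.00175) and -0.43 without it (SE 0.272, adjusted p = 0.953). Boc remained called by edgeR with the block when any 1 pair was left out, with adjusted p between 0.00376 and 0.02.

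The other SHH-binding proteins did not share one direction. Cdon, a paralogous co-receptor of the same family as Boc, fell from 69.1 ± 16.8 to 53.1 ± 18.6 CPM (SD, n = 3), with a log2 fold change of -0.41 with the block (edgeR adjusted p = 0.0109) that was not called without pair 1 (-0.29, adjusted p = 0.204). Gas1, a membrane-anchored co-receptor, was at 81.2 ± 18.1 and 89.3 ± 22.3 CPM, a log2 fold change of 0.13 with the block that was not called (edgeR adjusted p = 0.381). Hhip, a decoy receptor and pathway target, was near the detection limit at 2.50 ± 0.831 and 2.68 ± 1.79 CPM. Of the 6 genes in this list of other receptors and antagonists, 5 were tested. With the block 1 was called lower and none higher, beside 5.09% lower and 3.35% higher among all genes tested. The median log2 fold change of the list was -0.0025, against -0.0057 over all genes tested.

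**Figure D1:**
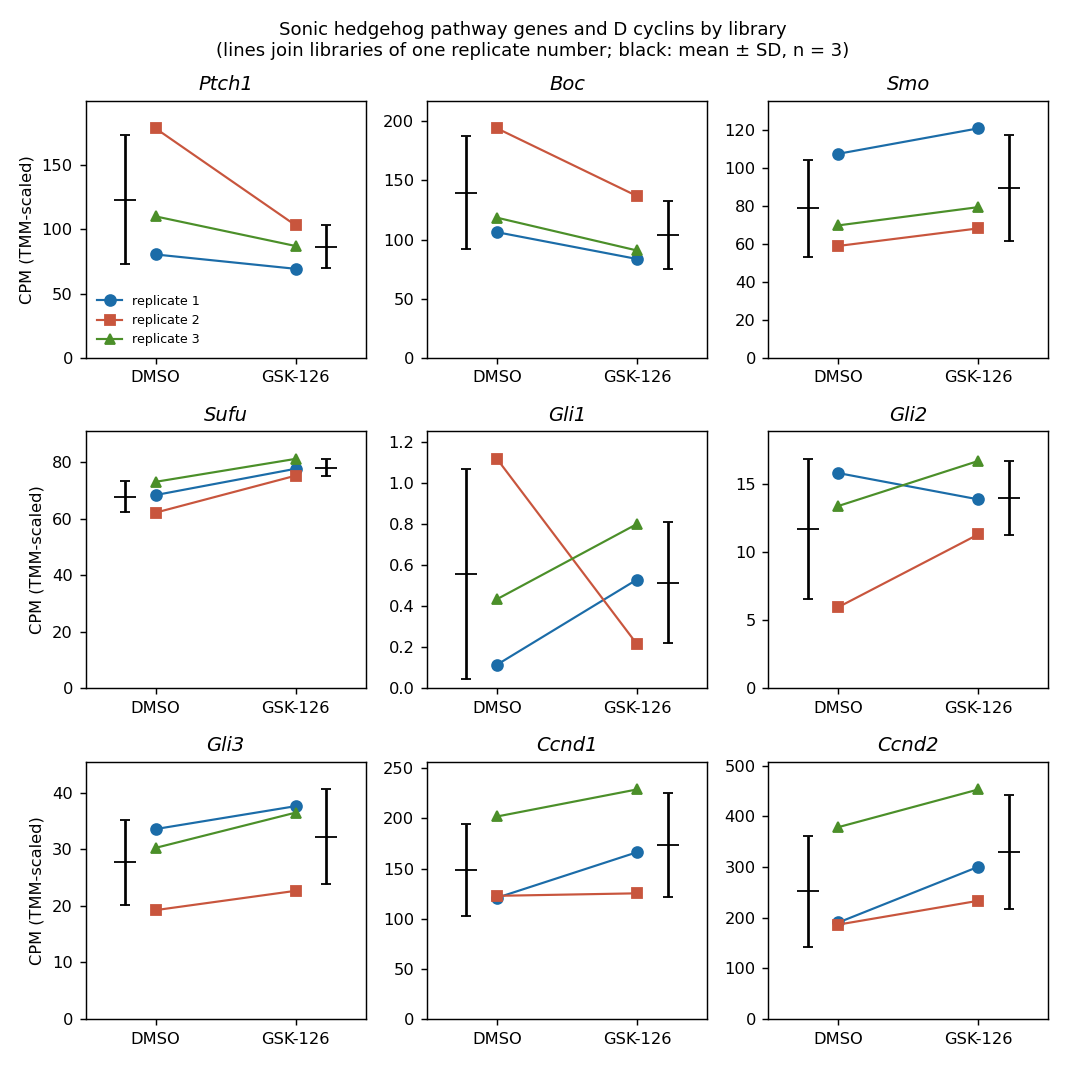
Expression of the 9 genes in each library, in TMM-scaled CPM on a linear axis from 0; coloured lines join the DMSO and GSK-126 libraries of one replicate number, and black bars give the group mean ± SD (n = 3). Ptch1 and Boc go down and Ccnd2 goes up along all 3 lines, Gli1 stays under 1.2 CPM with crossing lines, and only Sufu has groups that do not overlap.

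Smo encodes the membrane protein that PTCH1 restrains (ENSMUSG00000001761.7, chr6:29735503-29761365, plus strand). It had 108, 59.1 and 69.9 CPM in the DMSO libraries and 121, 68.3 and 79.5 CPM with GSK-126. The pair ratios were alike, at log2 values of 0.17, 0.21 and 0.19, all 3 on the higher side. With the block the log2 fold change of 0.19 (SE 0.0833) did not pass over all genes (edgeR adjusted p = 0.19), and without it the 95% interval ran from -0.45 to 0.83.

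Sufu, the cytoplasmic inhibitor that tethers the GLI factors (ENSMUSG00000025231.17, chr19:46396896-46488804, plus strand), was the steadiest member. Its levels were 68.3, 62.1 and 73.0 CPM with DMSO and 77.6, 75.2 and 81.1 CPM with GSK-126, so every GSK-126 library was above every DMSO library. It was the only 1 of the 8 tested members with no overlap, against 9.43% of all genes tested. The log2 fold change was 0.20 with the block (SE 0.0872) and was not called (edgeR adjusted p = 0.173). Taking all 8 members, 7 went the same way in all 3 pairs, Gli2 being the exception, where 42.3% of all genes tested did so.

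Gli1, the transcription factor gene most often read as the output of SHH signalling (ENSMUSG00000025407.7, chr10:127329882-127341974, minus strand), was nearly absent. It had 1, 12 and 5 reads in the DMSO libraries and 7, 2 and 6 reads in the GSK-126 libraries. The groups summed to 18 and 15 reads, and the GSK-126 libraries lay within the range of the DMSO libraries. It did not pass the filter on low counts and has no test. Fitted without that filter, its log2 fold change was -0.12 (SE 0.936) without the block and 0.10 with it, so no direction can be read at this depth. The ligand gene Shh was as sparse, with 7 reads over the DMSO and 19 over the GSK-126 libraries, and was not tested either.

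Gli2, which carries most of the activator function (ENSMUSG00000048402.14, chr1:118834132-119053619, minus strand), had 15.8, 5.95 and 13.4 CPM with DMSO and 13.8, 11.3 and 16.7 CPM with GSK-126. DMSO replicate 2 stood lowest, and pair 1 went down where pairs 2 and 3 went up. The log2 fold change with the block was 0.31 (SE 0.197, edgeR adjusted p = 0.388), and without DMSO replicate 2 and without the block it was -0.06. Gli3, which in its cleaved form is the main repressor (ENSMUSG00000021318.15, chr13:15463235-15730026, plus strand), had 33.6, 19.3 and 30.3 CPM with DMSO and 37.7, 22.7 and 36.5 CPM with GSK-126. Gli3 was higher in all 3 pairs by a small ratio, with a log2 fold change of 0.22 with the block (SE 0.12, edgeR adjusted p = 0.30). For both genes the replicate 2 libraries were the lowest of their group.

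**Figure D2:**
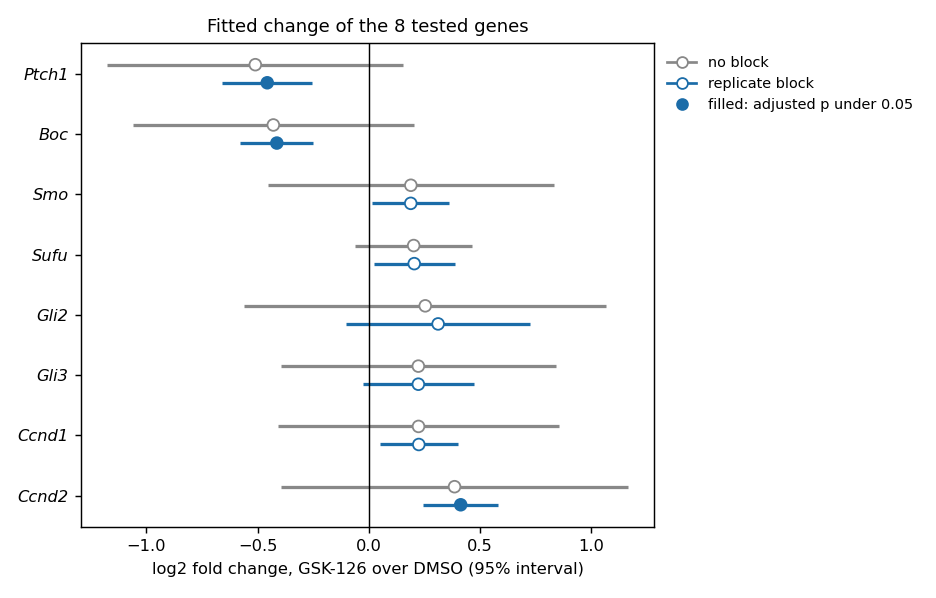
Log2 fold change of GSK-126 over DMSO for the 8 tested genes, with 95% intervals, from the fit without a block (grey) and with the replicate number as a block (blue); filled points have an adjusted p under 0.05. The fitted values of the 2 fits lie close together, while the intervals narrow with the block, and Ptch1 at -0.46, Boc at -0.41 and Ccnd2 at 0.41 are the 3 filled points.

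Ccnd2 encodes a D cyclin of dividing GNPs (ENSMUSG00000000184.12, chr6:127125162-127152193, minus strand). Its levels were 191, 186 and 379 CPM in DMSO replicates 1 to 3 and 301, 233 and 453 CPM in the GSK-126 libraries. All 3 GSK-126 libraries were above their partners, by log2 ratios of 0.66, 0.32 and 0.26, although the groups overlapped because replicate 3 was high in both. The log2 fold change was 0.41 with the block (SE 0.0802, edgeR adjusted p = 0.0022) and 0.38 without it (SE 0.338, adjusted p = 0.953). It remained called by edgeR with the block when any 1 pair was left out, with the weakest value without pair 1 (0.31, adjusted p = 0.0435). On the opposite strand, 368 bp of its exons overlap 9330179D12Rik and 372 bp overlap Gm43126, which was listed at 24.0 to 57.6 CPM. The strand setting of the counting is not given in the sources used here, so reads in these overlaps cannot be assigned to either gene.

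Ccnd1, a D cyclin gene that SHH induces in GNPs (ENSMUSG00000070348.5, chr7:144929931-144939925, minus strand), had 121, 123 and 202 CPM with DMSO and 166, 125 and 229 CPM with GSK-126. The rank of the libraries resembled that of Ccnd2, with replicate 3 highest in both groups, but pair 2 was nearly level at a log2 ratio of 0.029. The log2 fold change with the block was 0.22 (SE 0.0841) and was not called (edgeR adjusted p = 0.116). Without pair 2 it was 0.32 and passed (adjusted p = 0.0354), and with library totals in place of TMM factors it passed as well (0.26, adjusted p = 0.0469, both by edgeR with the block). Without pair 1 it dropped to 0.12 (edgeR adjusted p = 0.644) and without pair 3 it was 0.25 (0.17), neither called. Its exons share 1100 bp with LTO1 on the opposite strand, listed at 65.9 to 117 CPM.

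The third D cyclin gene, Ccnd3, had 83.5 ± 23.9 and 80.9 ± 20.1 CPM (SD, n = 3), a log2 fold change of -0.04 with the block that was not called. Per kilobase of exon, Ccnd2 made up 38.7% ± 4.05 of the reads of the 3 D cyclin genes with DMSO and 42.9% ± 2.28 with GSK-126 (SD, n = 3). The length used was that of the merged exons of all transcripts of a gene, and the shares depend on it. The share was higher with GSK-126 in each pair, by 5.59, 4.85 and 2.17 percentage points. An exact permutation test of 3 against 3 libraries gave a two-sided p of 0.3, with 0.1 the smallest possible, and an exact sign-flip test over pairs gave 0.25, the smallest that 3 pairs allow. Neither design can reach a p of 0.05, so these tests settle nothing about the share.

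Among the members, levels per kilobase of exon followed one order with DMSO: Gli1 at 0.11 CPM per kb, Gli2 at 1.70, Gli3 at 2.89, Ptch1 at 8.67, Sufu at 8.82, Smo at 14.0, Ccnd2 at 26.8, Boc at 31.4 and Ccnd1 at 31.5. Neighbouring genes overlapped over the 3 libraries between Gli2 and Gli3, between Ptch1 and Sufu, and among Ccnd2, Boc and Ccnd1, so these neighbours cannot be ordered. With GSK-126, Ptch1 at 6.10 CPM per kb lay below Sufu at 10.1 without overlap, and Boc at 23.3 lay below Ccnd2 at 35.0 with overlap. Thus the co-receptor Boc and both cyclins were many times more abundant per kb than any GLI gene in both groups. The order of Ptch1 and Sufu depends on the exon lengths used, 14185 and 7691 bp. In CPM not divided by length, Ptch1 at 86.5 lay above Sufu at 78.0 with GSK-126, with overlap.

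The wider pathway was described by 7 lists of 90 genes other than the members, of which 82 were tested. With the block, 5 were called lower and 1 higher, beside 5.09% lower and 3.35% higher among all genes tested, so 6 of 82 is near the background of 8.44% and is no result about the pathway as a whole. Without the block none was called. Of the 8 genes for ligands and their release 4 were tested, and Scube1, which encodes a secreted protein that helps release lipid-modified SHH, fell from 34.1 ± 3.75 to 25.4 ± 6.74 CPM (log2 fold change -0.44 with the block, edgeR adjusted p = 0.0416). That call was absent without pair 2 (adjusted p = 0.218) or pair 3 (adjusted p = 0.186).

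Of the 24 carriers of the signal between SMO and GLI, 23 were tested and 2 were called, both lower. Grk2, the kinase that phosphorylates active SMO, fell from 235 ± 39.4 to 191 ± 35.0 CPM (log2 fold change -0.30 with the block, edgeR adjusted p = 0.0109). Cul3, the ubiquitin ligase scaffold that acts with SPOP on the GLI factors, fell from 181 ± 35.7 to 148 ± 14.0 CPM (-0.27, edgeR adjusted p = 0.0326). Grk2 was not called without pair 1 (edgeR adjusted p = 0.153), nor Cul3 without pair 2 (0.183) or pair 3 (0.0828). Kif7, the ciliary tip kinesin that organises GLI and SUFU, was at 8.92 ± 2.76 and 11.6 ± 3.08 CPM and was not called (0.39, edgeR adjusted p = 0.228). Gpr161, the ciliary receptor that keeps protein kinase A active, was at 13.0 ± 2.30 and 12.6 ± 2.36 CPM and was not called (-0.05).

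Of the 18 primary cilium genes, 17 were tested and Kif3a alone was called. Kif3a, a subunit of the kinesin that builds the cilium, fell from 93.5 ± 15.6 to 75.9 ± 8.03 CPM (log2 fold change -0.30 with the block, edgeR adjusted p = 0.0334), and it was not called without any 1 pair, with adjusted p from 0.054 to 0.171. The medians of the carriers and of the cilium list were -0.03 and -0.06 with the block.

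Transcripts known to follow SHH in GNPs had a median log2 fold change of 0.18 with the block, against -0.0057 over all genes tested. Of the 8 tested 7 were on the higher side, but none of the 10 listed was called in either direction. Atoh1 of this list was too sparse to be tested, with 5 reads over the DMSO and 11 over the GSK-126 libraries. Mycn, the transcription factor that links SHH to GNP division, had a mean of 14.7 ± 4.43 CPM in DMSO cultures and 20.3 ± 2.60 CPM with GSK-126, with a log2 fold change of 0.49 (SE 0.19) that did not pass over all genes (edgeR adjusted p = 0.135). Its groups did not overlap, but the value rests on pair 2: the log2 ratios of pairs 1 to 3 were 0.14, 1.21 and 0.10. With the block it was 0.13 without pair 2 (edgeR adjusted p = 0.762) and was called without pair 1 (0.68, adjusted p = 0.0236) or pair 3 (0.68, adjusted p = 0.0219). Of the members that also follow SHH, Ccnd2 rose, Ptch1 fell, Ccnd1 was not called and Gli1 had no readable direction.

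None of the 15 partners of the D cyclins in G1 was called. Cdk4, their main catalytic partner, was at 158 ± 27.0 and 187 ± 34.9 CPM, with a log2 fold change of 0.24 that lay at the threshold with the block (edgeR adjusted p = 0.0504). It was called with the block with library totals (0.27, edgeR adjusted p = 0.0216) and with at least 10 counts in every library (0.25, 0.0265), and 641 bp of its exons overlap Tspan31 on the opposite strand. Cdk6 was at 32.6 ± 11.4 and 37.4 ± 8.08 CPM (0.22, not called). Of 11 proliferation markers 10 were on the higher side with a median of 0.10, and 1, Pcna, which encodes the sliding clamp of DNA polymerase, rose from 61.0 ± 13.4 to 77.9 ± 12.9 CPM (0.36 with the block, edgeR adjusted p = 0.0138, and 0.0695 without pair 2). Mki67, a marker of cycling cells, was at 90.4 ± 18.1 and 98.0 ± 32.7 CPM and was not called (0.09).

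**Figure D3:**
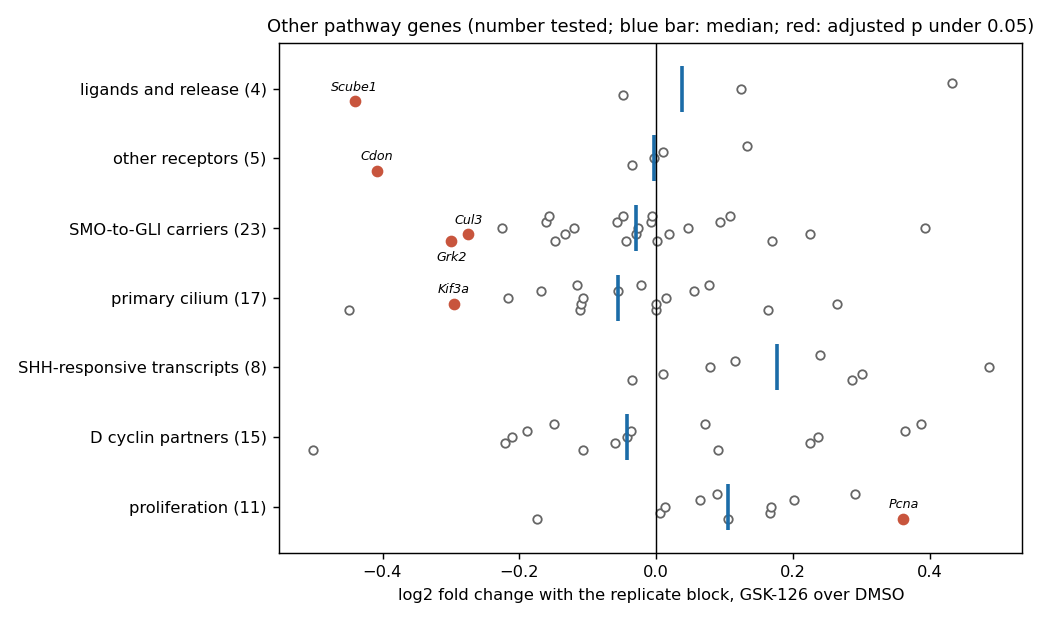
Log2 fold change of GSK-126 over DMSO with the replicate block for the tested genes of the 7 pathway lists, the number tested in brackets; each point is a gene, red points have an adjusted p under 0.05 and the blue bar is the list median. The called genes Scube1, Cdon, Grk2, Cul3 and Kif3a lie below 0 and Pcna above it, and the SHH-responsive transcripts have a median of 0.18.

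Markers of the cells in the cultures varied between replicate numbers and moved with several members. In bulk RNA, fewer cells of a type and lower expression of its marker genes in each cell cannot be told apart. The summed CPM of 10 granule neuron markers was highest in replicate 2, with 3661, 5742 and 4210 CPM in the DMSO libraries and 3027, 4654 and 3255 CPM with GSK-126 for replicates 1 to 3. Ptch1 and Boc shared this order, highest in replicate 2 of both groups, and like the sum they were lower with GSK-126 in each pair. With the block 5 of the 10 granule neuron markers were called lower and 1, Barhl1, higher. Those lower were Etv1 (-1.17), Gabra6 (-1.19), Rbfox3, Neurod1 and Zic1 by log2 fold change with the block. For this and every other marker list, the share over all genes tested was 5.09% called lower and 3.35% higher. The part of granule neuron RNA in the values of Ptch1, Boc and Cdon was not tested.

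Astroglial markers were abundant and lowest in replicate 2, with sums of 8118, 2655 and 4548 CPM with DMSO and 8459, 2571 and 4515 CPM with GSK-126. Gli2, Gli3 and Smo were lowest in replicate 2 too. So were the summed markers of microglia, the oligodendrocyte lineage, Purkinje cells, GABAergic interneurons and endothelium, in both groups. Between the groups 2 of the 10 astroglial markers, S100b and Gdf10, were called higher with the block and none lower. Fibroblast and mural markers summed to 5107, 5930 and 7141 CPM with DMSO and 6536, 6391 and 7870 CPM with GSK-126. That sum was higher with GSK-126 in each pair and highest in replicate 3, as Ccnd1 and Ccnd2 were. Of its 7 genes 2, Acta2 and Pdgfrb, were called higher with none lower. Col1a1 and Col1a2, at means of 2963 and 2237 CPM with DMSO, made up most of its DMSO mean of 6059. These 2, Acta2, Pdgfrb and Rgs5 were highest in replicate 3 of both groups. Dcn and Lum were instead highest in replicate 1 and lowest in replicate 2 with DMSO, and each was lower with GSK-126 in 1 pair. The endothelial sum was highest in replicate 3 of both groups too. Microglial and oligodendrocyte lineage sums were also higher with GSK-126 in each pair. The part of any of these cells in the cyclin values was not tested.

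The remaining marker lists were smaller in level. Microglial markers summed to 187 to 407 CPM with DMSO and 267 to 501 CPM with GSK-126, with C1qa and C1qb of 7 called higher. Markers of GABAergic interneurons summed to 197 to 229 CPM and 148 to 186 CPM, with Gad1, Gad2 and Slc32a1 of the 5 tested called lower. Their sum was lower with GSK-126 in each pair. Oligodendrocyte lineage markers summed to 432 to 745 CPM and 500 to 760 CPM, with Mbp of 8 called higher. No tested marker of Purkinje cells (7 of 8) or endothelium (3 of 4) was called, with sums of 136 to 157 and 51.6 to 73.3 CPM in the DMSO libraries and 132 to 161 and 38.5 to 69.3 CPM in the GSK-126 libraries. Skor2 of the Purkinje list was at 0 in every library and Cldn5, a defining endothelial marker, was under 1 CPM.

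**Figure D4:**
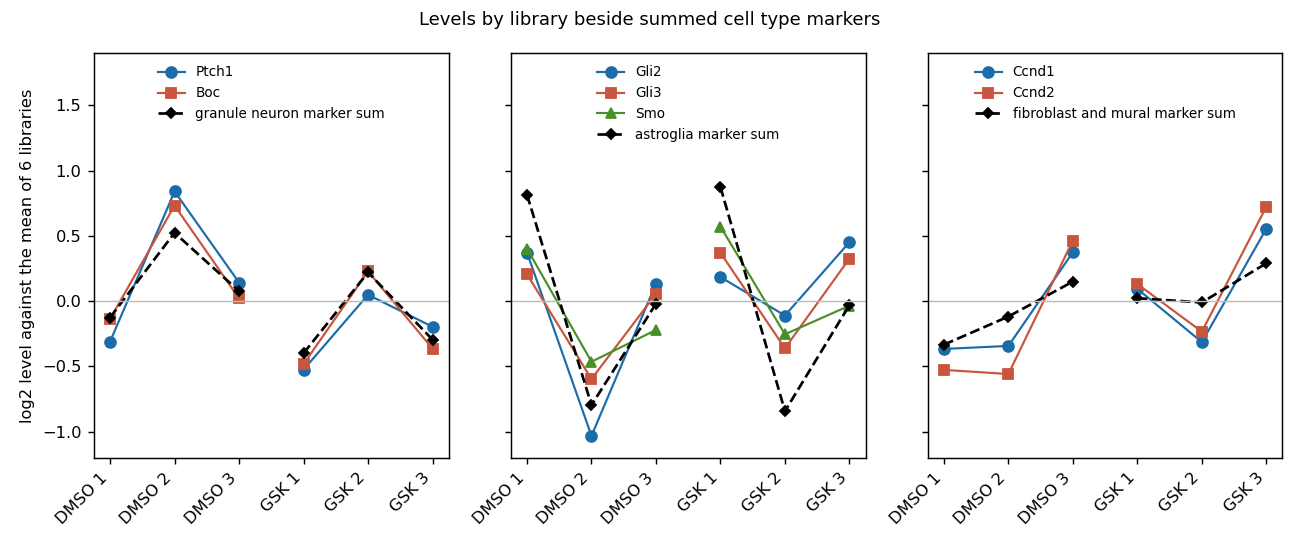
Level in each library as the log2 difference from the mean of the 6 libraries, for members (coloured) and the summed markers of a cell type (black, dashed), with the 3 DMSO libraries to the left and the 3 GSK-126 libraries, written GSK, to the right. Ptch1 and Boc peak in replicate 2 of each group like the granule neuron sum. Gli2, Gli3 and Smo dip there like the astroglial sum, and Ccnd1 and Ccnd2 peak in replicate 3 like the fibroblast and mural sum. Col1a1 and Col1a2 made up most of that fibroblast and mural sum, and its genes Dcn and Lum peaked in replicate 1 with DMSO. The microglial, oligodendrocyte lineage, Purkinje cell, GABAergic interneuron and endothelial sums, not drawn, were also lowest in replicate 2 of both groups. Of these, the endothelial sum was highest in replicate 3 of both groups.

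The genes most like a member over the 6 libraries were found by Pearson correlation of log2 CPM, given as a description because the libraries share pairs and cell mixtures. For Ccnd2 they were Ubap2 (r = 0.998), Ptk2b and Hes1, and for Ccnd1 they were Ptafr (r = 0.998), Iqgap1 and Rasgrp3. As many as 292 genes for Ccnd2 and 300 for Ccnd1, of 11001 compared, had an r above 0.9, so a high r over 6 libraries was common for both cyclins. For Gli1 the nearest were Leprotl1 (r = 0.976), Hs2st1 and Ammecr1, with 29 of 11002 genes above 0.9. Gli1 had 1 to 12 reads a library, so its pattern carries a large counting error.

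Depth was 7407189 to 13092763 reads on genes per library. No library was a copy of another, and the granule neuron sum was highest and the astroglial sum lowest in replicate 2 of both groups, while replicate 1 had the highest astroglial sum. The granule neuron markers were present in all 6 libraries, with Zic1 at 1082 to 1882 CPM. Other overlaps of exons on opposite strands were 62 bp between Gli1 and Arhgap9, 265 bp between Gli1 and Gm47200, 188 bp between Gli3 and Gm6556, 361 bp between Ccnd3 and Bysl and 589 bp between Gas1 and Gm48488. The study counts a culture replicate as CGNs of pooled litters. Without the block, the p-values measure the spread between such preparations. With the block, they measure the spread of the difference between the groups from pair to pair.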

How the data were processed

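RNA was measured by poly-A selected, paired-end sequencing of 6 CGN libraries, 3 per group, with groups taken from the sample labels. The raw counts per gene deposited by the authors came from HTSeq on exons, after trimming in Trimmomatic 0.38 and alignment in STAR 2.7.2b (GRCm38.p4, mm10). Strand and Gencode release are not given in the sources used here. All 55341 symbols are those of GENCODE M21, which gave coordinates, overlaps and exon lengths. An exon length is that of the merged exons of all transcripts of a gene, so levels per kilobase depend on that choice. Lines naming no gene held 58.7% to 60.7% of each library and were left out.

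Counts were tested in R 4.3.3 with edgeR 4.0.16 (TMM, filterByExpr, quasi-likelihood test, no block), with Benjamini-Hochberg adjustment over 16729 genes and calls at an adjusted p under 0.05. DESeq2 1.42.0 was an alternative. Fits were tested on simulated data. CPM were scaled by TMM factors, and pair ratios and likeness used log2 of CPM plus 0.5. A standard error (SE) was the absolute log2 fold change over the square root of the F statistic. Intervals are at 95% and used this SE with the total degrees of freedom of the moderated fit. The exact tests and likeness used scipy 1.17.1 and numpy 2.4.6, and the figures matplotlib 3.10.9.

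Replicate numbers 1 to 3 occur in both groups. Each library's log2 CPM minus its group mean correlated at 0.586, 0.663 and 0.513 across genes for libraries of the same number and at 0.0122 or less for others, so the numbers pair the libraries. The replicate block is therefore given beside each result that it changes. The biological coefficient of variation was 24.0% without the block and 9.74% with it.

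Members and gene lists were chosen with earlier results of these data known. Genes named are the 9 members, fixed pathway genes (the result of 1 is not reported here), up to 2 of each pathway list with the smallest p among those called with the block, the markers called with the block, and the 3 genes most like Gli1, Ccnd1 and Ccnd2 with a mean log2 CPM over 3. Markers, including some that were not called, overlapping genes and Atoh1 were named after their values were seen. Alternatives were DESeq2, upper-quartile factors, library totals, a minimum of 10 counts per library, no filter, leaving out each pair or library, the replicate block, and, added after seeing the data, the block without the filter for Gli1.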

Additional observations from a re-analysis of the deposited data

How the results depend on the processing

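Without the block, genes called went from 0 to 21 with DESeq2 and 10 with no filter, and stayed at 0 with upper-quartile factors, library totals, at least 10 counts in every library or any 1 library left out. With the replicate block, edgeR called 1412 genes, 3 members and 6 pathway list genes. The block gave 1460 genes, 3 members and 7 list genes with at least 10 counts in every library, 1421, 4 and 4 with library totals, and 951, 3 and 3 in DESeq2. It gave 1088, 3 and 4 without pair 1, 833, 3 and 3 without pair 2, and 1277, 3 and 5 without pair 3. The 3 members without pair 2 were Boc, Ccnd1 and Ccnd2, and otherwise Ptch1, Boc and Ccnd2, joined by Ccnd1 with library totals. The cause of these changes was not tested.

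Ptch1, Gli3, Sufu, Boc and Ccnd2 kept their sign in all 18 alternatives. Leaving out 1 library without the block gave log2 fold changes from -0.72 to -0.14 for Ptch1, -0.66 to -0.11 for Boc and 0.08 to 0.81 for Ccnd2. The sign turned for Gli2 (-0.062 to 0.54), Smo (-0.078 to 0.49), Ccnd1 (-0.026 to 0.51), Gas1 (-0.072 to 0.35), Gpr161 (-0.20 to 0.13), Ccnd3 (-0.25 to 0.15), Mki67 (-0.17 to 0.31) and Hhip (-0.26 to 0.59). With the block Hhip was at -0.036, at -0.0096 with library totals, -0.13 in DESeq2, -0.062 without pair 1 and -0.59 without pair 3. Mki67 was at -0.0031 with the block without pair 1, and Gli1, unfiltered, at 0.10 with the block. None of these reversals was called. Depth limits Gli1 and Shh.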
